A study of Mus musculus with 9 samples.

Results

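The 10 fibroblast growth factor (FGF) ligands examined here were Fgf8, Fgf17, Fgf18, Fgf9, Fgf20, Fgf3, Fgf7, Fgf10, Fgf2 and Fgf13, a set listed by gene name and not by level, and they were 10 of 43548 gene identifiers measured. Their transcripts were followed by RNA-seq in the skull of E14.5 mouse embryos in 9 libraries, with 3 libraries per group. The MCAGF8 cranial vault came from embryos with Msx2-Cre and the CAGF8 allele, in which Cre removes a stop sequence and so lets the CAG promoter drive Fgf8b from the ROSA26 locus. Msx2-Cre acts in the head ectoderm and not in the mesenchyme beneath it, and the skin was peeled away before the vault was sampled. Control cranial vault, and control cranial base (the floor of the skull), came from embryos labelled wildtype, on a strain labelled mixed. By the breeding scheme of the methods, Cre mice were crossed to mice homozygous for the allele, so these controls would carry it in its silent form. Each library was made from a pool of 3 tissue samples, 9 samples per group, and whether the vault and base pools came from the same embryos is not stated. P-values therefore measure the spread between pools.

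FGFs are small growth factors, most of which leave the cell, bind heparan sulfate and signal through the tyrosine kinase receptors FGFR1 to FGFR4 to the ERK pathway. The family is divided by sequence into subfamilies: Fgf8, Fgf17 and Fgf18 form one, Fgf9 and Fgf20 belong to another, Fgf3, Fgf7 and Fgf10 to that of Fgf7, and Fgf2 to that of Fgf1. Fgf13 belongs to a subfamily that stays inside the cell, where it binds voltage-gated sodium channels and microtubules. In the skull, Fgf18, Fgf9 and Fgf2 are known as signals in bone and suture development, whereas Fgf7 and Fgf10 are typically made by mesenchyme and read by epithelium through a splice form of FGFR2.

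Levels are given as FPKM (fragments scaled to transcript length and to mapped fragments), which allows genes of different length to be compared. Differences were tested with limma on log2(FPKM + 1) across the 18714 genes with a mean of at least 0.5 FPKM, and calls required an adjusted p (Benjamini-Hochberg, over all genes tested) under 0.1 as well as an unadjusted one under 0.05. Of the 10 ligands 7 reached that mean, and Fgf3, Fgf17 and Fgf20 did not, so these 3 have values but no test. A log2 difference on this scale understates the change of a gene at low FPKM.

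Some libraries stood apart in ways that touched the ligands. Base replicate 2 had a summed FPKM of 841 over 8 markers of otic epithelium (the lining of the inner ear), against 8.99 and 10.8 in the other base libraries and 1.42 to 4.94 in the 6 vault libraries. Base replicate 3 had 1287 FPKM over the 13 neuronal markers matched, against 330 and 323 in base replicates 1 and 2 and 24.6 to 80.9 in the vaults. The cartilage markers, which should define the cranial base at this stage, summed to 8532 FPKM in base replicate 2 but to 883 and 1313 in base replicates 1 and 3, below every control vault library (1751 to 2358). The cartilage list thus did not set the base libraries apart as a group. Skeletal muscle markers summed to 847 to 5279 FPKM in the control vault, 20.4 to 175 in the MCAGF8 vault and 1580 to 10772 in the base. Osteoblast markers were at 1373 to 3373, 140 to 288 and 491 to 1377 FPKM in the same order. In bulk tissue, fewer cells of one type and less RNA per cell cannot be told apart.

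To place the transcript starts behind the gene-level values, the 100 bases before annotated starts are shown for the 3 ligands called in any comparison (Fgf7, Fgf9 and Fgf13) and for Fgf18, the most abundant ligand of the vault. The sequences are RefSeq on GRCm38.p6, read 5′ to 3′ on the strand of the gene, and capitals mark GGGCGG or CCGCCC, the GC box read on either strand. The windows lie at chr2:126034558-126034657 (Fgf7, plus strand), chr14:58072586-58072685 (Fgf9, plus strand), chr11:33147401-33147500 (Fgf18, minus strand), and chrX:59585573-59585672 and chrX:59134437-59134536 (both Fgf13, minus strand). Each lies upstream of a RefSeq start and overlaps no exon of the GENCODE annotation. In that annotation the genes span chr2:126034658-126091185 (Fgf7, ENSMUSG00000027208), chr14:58070547-58112720 (Fgf9, ENSMUSG00000021974), chr11:33117430-33147400 (Fgf18, ENSMUSG00000057967) and chrX:59062145-59568071 (Fgf13, ENSMUSG00000031137), and Fgf8 (ENSMUSG00000025219) spans chr19:45736798-45742915 on the minus strand. The window of the first Fgf13 start thus lies outside the annotated gene, and those of Fgf9 and the later Fgf13 start lie inside the span of their genes.
Fgf7: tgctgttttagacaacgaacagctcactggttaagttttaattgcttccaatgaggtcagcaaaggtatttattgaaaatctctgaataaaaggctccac
Fgf9: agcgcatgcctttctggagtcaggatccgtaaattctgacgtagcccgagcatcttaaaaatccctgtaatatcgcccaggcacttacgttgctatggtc
Fgf18: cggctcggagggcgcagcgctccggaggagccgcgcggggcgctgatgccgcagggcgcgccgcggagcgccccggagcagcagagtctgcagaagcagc
Fgf13 first start: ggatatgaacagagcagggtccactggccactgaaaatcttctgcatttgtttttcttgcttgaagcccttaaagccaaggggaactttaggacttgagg
Fgf13 later start: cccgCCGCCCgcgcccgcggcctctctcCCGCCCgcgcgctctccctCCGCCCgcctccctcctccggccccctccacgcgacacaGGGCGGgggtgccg
These starts differed in base composition. The later Fgf13 window was 85% G or C with 17 CG pairs and 4 GC box matches, while the window before the first Fgf13 start was 46% G or C with no CG pair. Further Fgf13 windows overlap annotated exons and are not shown. They lie at chrX:59567349-59567448 (72% G or C, 12 CG pairs, 1 GC box match) and chrX:59166089-59166188 (43%, 3 and 0). First and later thus refer only to the Fgf13 starts shown. Fgf18 had 79% G or C and 16 CG pairs without a GC box match, Fgf9 had 49% and 6, and Fgf7 had 37% and 1. Across 32851 windows of the same length before RefSeq starts the median was 55% G or C with 3 CG pairs, and 24.68% held a GC box match on either strand. The motif TATAAA, read on either strand, was in 5.561% of all windows and in none of the 10 windows of the 7 ligands that had one. The FPKM values are per gene, so which Fgf13 start was used cannot be read from them.

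The order of the ligands differed between tissues. In the control cranial vault Fgf18 was the most abundant, at 22.6 ± 5.38 FPKM (SD, n = 3), and its range did not overlap that of the next ligand, Fgf13, at 13.2 ± 3.05. From there the levels ran down through Fgf2 (11.4 ± 1.86), Fgf8 (8.24 ± 5.23), Fgf7 (6.04 ± 0.651), Fgf9 (4.06 ± 1.68) and Fgf10 (2.65 ± 0.817), each overlapping its neighbour. Fgf20, Fgf3 and Fgf17 followed at 0.343 ± 0.339, 0.204 ± 0.168 and 0.204 ± 0.232 FPKM, with no overlap between Fgf10 and Fgf20. The MCAGF8 cranial vault had Fgf8 above Fgf2 (14.0 ± 5.10 and 9.63 ± 2.81 FPKM, overlapping) and Fgf9 below Fgf10 (1.41 ± 0.622 and 2.87 ± 0.468), without overlap between the ranges of Fgf10 and Fgf9. In the control cranial base Fgf13 was first at 87.6 ± 73.2 FPKM, followed by Fgf18 at 22.4 ± 5.85 and Fgf7 at 10.5 ± 2.43, and the ranges of these 3 did not overlap.

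**Figure D1:**
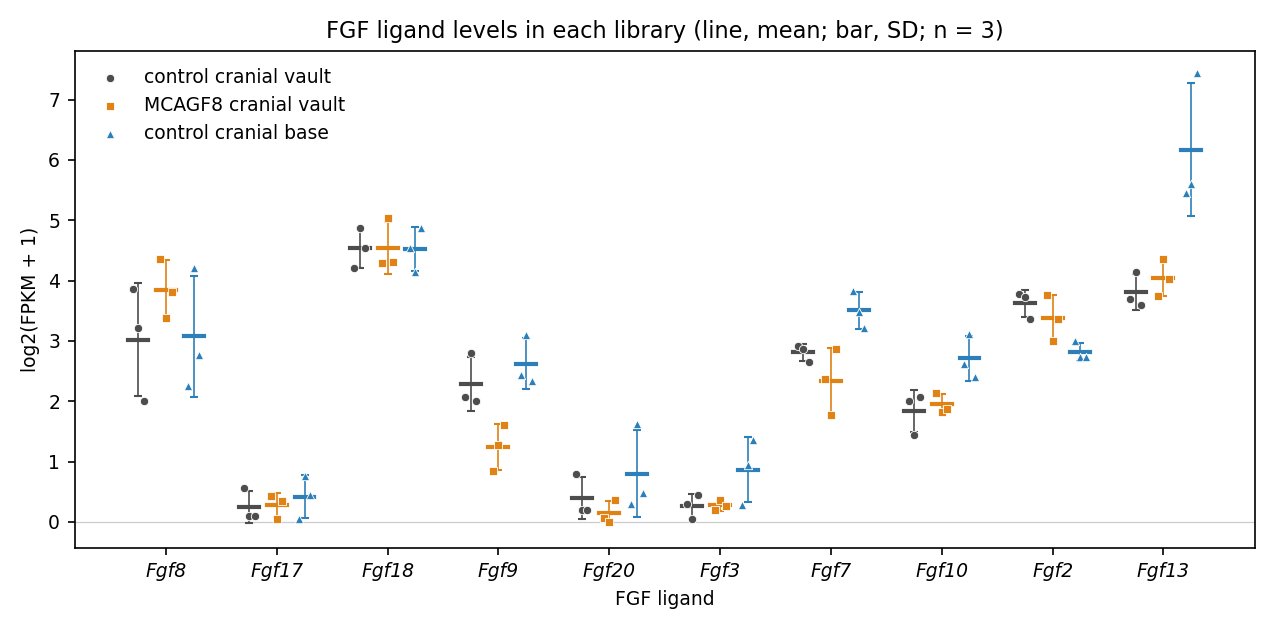
Level of each of the 10 FGF ligands as log2(FPKM + 1) in the 3 libraries of each group, with points for libraries, a line for the mean and a bar for the SD. Fgf18 sits at the same height in all groups, Fgf9 is lowest in the MCAGF8 cranial vault, and Fgf13 is highest in the control cranial base, where base replicate 3 reaches 172 FPKM.

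The first comparison asked what ectodermal Fgf8 overexpression did to the ligands of the cranial vault, and none of the 7 tested ligands was called with limma, where 0.604% of all genes tested were. At an unadjusted p under 0.05 alone 1 of the 7 passed, Fgf9, where 6.34% of all genes did. Fgf9 was also the one ligand of 10 whose ranges did not overlap between the 2 vaults, as was so for 19.2% of all genes. The median log2 difference of the 7 tested ligands was 0.01, and that of all genes tested was -0.01.

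Fgf8, the gene under the control of the transgene, was counted as transgene and endogenous transcripts together. Its level was 13.5, 8.25 and 3.01 FPKM in the control vault and 19.5, 9.43 and 13.0 FPKM in the MCAGF8 vault, replicates 1 to 3 in each. The MCAGF8 libraries were the higher on average, but the lowest of them lay below the highest control. The difference was 0.83 on the log2(FPKM + 1) scale (SE 0.572, 95% interval -0.45 to 2.11, adjusted p = 0.969 with limma), and the ratio of the mean FPKM was 1.70. Leaving out 1 library moved the difference from 0.32 (without control vault replicate 3) to 1.24 (without control vault replicate 1), with no call in either case. The ectoderm in which Cre acts had been removed with the skin, yet epidermal markers summed to 459 to 1110 FPKM in the MCAGF8 vault and 71.3 to 129 in the control vault. Krt15 and Krt5, keratins of the basal epidermis, were at 64.4 to 112 and 139 to 252 FPKM in the MCAGF8 vault and at 0.733 to 13.9 and 1.63 to 29.2 in the control vault. Of the 17 epidermal markers 3 were called higher in the MCAGF8 vault with limma, as were 43 of all 18714 genes tested. Among the 17 markers, 13 had a positive and 4 a negative difference, and their median was 2.08. Krt18 (-1.46), Krt8 (-1.14), Cldn6 (-0.68) and Epcam (-0.0041) were those with a negative difference. In the base the epidermal sum was 212 to 976 FPKM, and it was lowest in replicate 2, which had the most Fgf8 of the base. The part of epidermis in the Fgf8 values was not tested.

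The level of Fgf8 moved with a property of the whole library. FPKM values summed to 793249 to 1315982 per library, and in each of the 3 groups the library with the smallest sum had the most Fgf8 and the one with the largest sum the least. Fgf8 was at 3.78, 17.4 and 5.82 FPKM in base replicates 1 to 3, whose sums were 1315982, 793249 and 1122989. Base replicate 2 thus had more Fgf8 than 2 of the 3 MCAGF8 vault libraries, without the transgene being active. Over the 9 libraries Pearson's r between log2(FPKM + 1) of Fgf8 and the log2 of the FPKM sum was -0.92 and Spearman's rho -0.93. Pearson's r was -0.90 over the 7 libraries left without the 2 farthest sums, and -0.91 for deviations from the group means. Of all genes tested 2.25% had a correlation at least as negative. Why the sums differed cannot be read from FPKM values. The FPKM sum is the total of all values of a library, with Fgf8 among them, so it is not a separate measurement. Its part in the Fgf8 differences was not tested, and with each library scaled to the same sum the difference between the vaults was 0.98 (adjusted p = 0.876 with limma). Against the base the MCAGF8 vault differed in Fgf8 by 0.78 (95% interval -0.51 to 2.06, adjusted p = 0.499; 0.37 to 1.34 with 1 library left out), and base and control vault differed by 0.05 (-1.23 to 1.34), a sign that turned under quantile normalization.

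**Figure D2:**
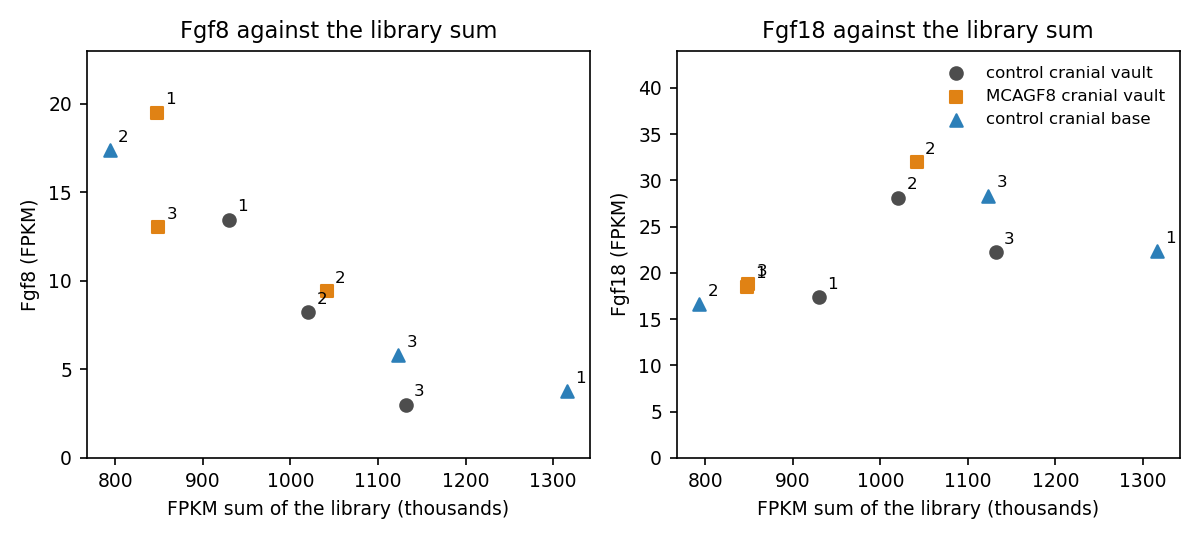
FPKM of Fgf8 (left) and Fgf18 (right) against the sum of all FPKM values of the library, with 1 point per library and its replicate number. Fgf8 falls from 19.5 and 17.4 FPKM at sums near the low end to 3.01 and 3.78 at the 2 largest sums, whereas Fgf18 is lowest, at 16.6 to 18.8 FPKM, in the 4 libraries with the smallest sums.

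Fgf18, a signal of the same subfamily that is made by skeletal mesenchyme, was at 17.4, 28.1 and 22.2 FPKM in the control vault, 18.5, 32.0 and 18.8 in the MCAGF8 vault, and 22.3, 16.6 and 28.3 in the base. The groups overlapped throughout. Its differences were 0.01 between the vaults, with a 95% interval of -0.63 to 0.65, 0.02 between MCAGF8 vault and base (-0.62 to 0.66), and -0.01 between base and control vault (-0.65 to 0.63), each with SE 0.285. These intervals allow a change of either sign, and the sign between the vaults turned under quantile normalization. Fgf17, the other member, was at 0.473, 0.0757 and 0.0643 FPKM in the control vault, 0.344, 0.0374 and 0.275 in the MCAGF8 vault and 0.0364, 0.69 and 0.367 in the base, with no group set apart. Fgf18 was higher than Fgf8 by a factor of 1.29 to 7.39 in the control vault. In the MCAGF8 vault the factor was 0.948 to 3.39, and in the base it was 0.957 to 5.92, so Fgf8 exceeded Fgf18 in 1 library of each of these groups.

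Fgf9, known as a signal in early bone, in muscle and in the inner ear, was at 3.20, 5.99 and 2.99 FPKM in the control vault and at 0.787, 1.41 and 2.03 FPKM in the MCAGF8 vault. Every MCAGF8 library lay below every control. The mean was 2.88-fold lower and the log2 difference was -1.06 (SE 0.327, unadjusted p = 0.00954), but the adjusted p was 0.390 with limma, so the difference was not called. It was not called under any of the 16 alternatives either, whose adjusted p ran from 0.226 to 1.00. Fgf20, its subfamily neighbour, was listed at 0.0401, 0 and 0.289 FPKM in the MCAGF8 vault and at 0.734, 0.146 and 0.150 in the control vault, which overlap.

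The remaining ligands overlapped between the vaults. Fgf7 was at 6.51, 6.31 and 5.30 FPKM in the control vault and 4.14, 2.41 and 6.26 in the MCAGF8 vault, a difference of -0.48 (SE 0.296, adjusted p = 0.969 with limma). Fgf10, which shares its receptor with Fgf7, was at 1.71 to 3.21 and 2.55 to 3.41 FPKM. Fgf2, stored in the extracellular matrix and lacking a classical secretion signal, was at 9.27 to 12.7 and 7.01 to 12.6 FPKM. Fgf13 was at 11.1 to 16.7 and 12.4 to 19.6 FPKM. Their log2 differences were 0.11 (95% interval -0.50 to 0.72), -0.24 (-0.79 to 0.30) and 0.24 (-0.80 to 1.28).

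The second comparison set the MCAGF8 vault against the control cranial base, the skeletal region that normally forms through cartilage. These groups differ in both region and genotype, so the part of each cannot be told apart here. Fgf13, Fgf9 and Fgf7, 3 of the 7 tested ligands, were called lower in the MCAGF8 vault than in the base. Of all genes 8.39% were called in either direction and 5.41% lower. No ligand was called higher. At an unadjusted p under 0.05 alone 5 passed, where 19.6% of all genes did. The ranges of 5 of the 10 ligands did not overlap (Fgf13, Fgf9, Fgf7, Fgf10 and Fgf2), which was so for 21.9% of all genes. The median log2 difference of the 7 tested ligands was -0.76, against -0.07 for all genes.

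The third comparison was base against control vault within embryos without Cre. It called 1 of 7 ligands, Fgf13, higher in the base, against 3.06% of all genes in either direction and 1.85% called higher. At an unadjusted p under 0.05 alone 4 passed, where 12.8% of all genes did. Ranges of 4 ligands did not overlap (Fgf13, Fgf10, Fgf7 and Fgf2), which was so for 15.5% of all genes. The median of the 7 was 0.33 and that of all genes was 0.07. The 3 comparisons use the same 9 libraries in pairs of groups, so each group enters 2 of them and the values below are given side by side.

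**Figure D3:**
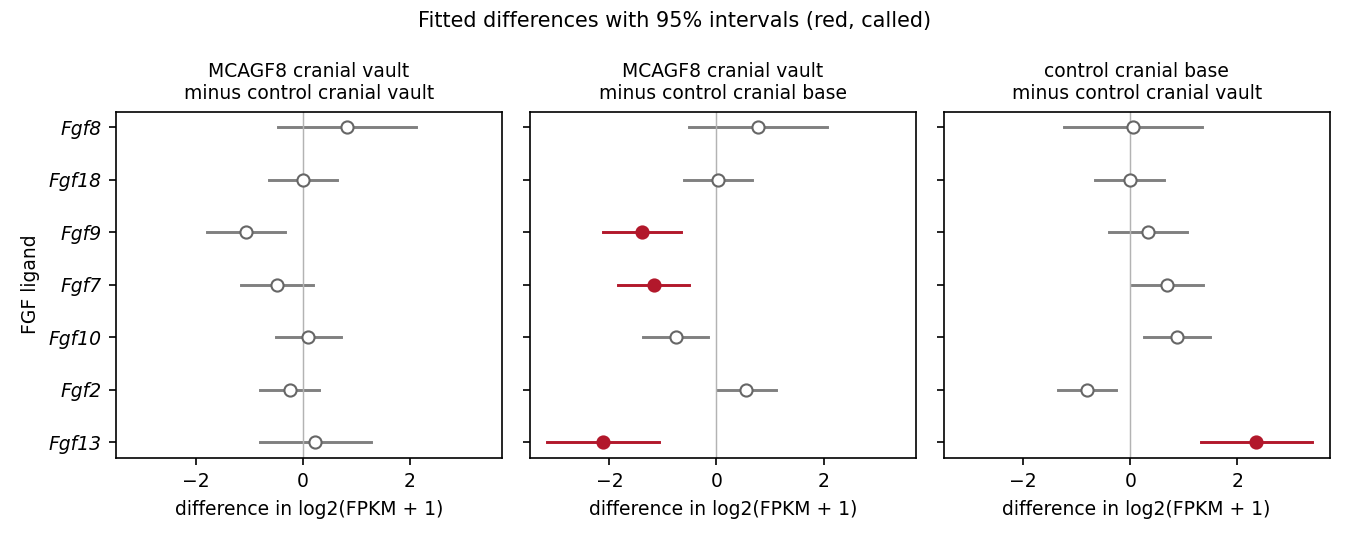
Fitted difference in log2(FPKM + 1) of the 7 tested ligands in the 3 comparisons, with 95% intervals from limma and called ligands in red. No ligand is called between the 2 vaults, Fgf9, Fgf7 and Fgf13 are called lower in the MCAGF8 cranial vault than in the control cranial base, and Fgf13 is called higher in the base than in the control vault.

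Fgf13 had the largest differences of the 7 ligands in both comparisons with the base. It was at 42.9, 47.7 and 172 FPKM in base replicates 1 to 3, above all 6 vault libraries, the highest of which was 19.6 FPKM. Its log2 difference was -2.12 for MCAGF8 vault against base (SE 0.464, adjusted p = 0.0322 with limma) and 2.36 for base against control vault (SE 0.464, adjusted p = 0.0466). Base replicate 3 raised the size of both. Without it the differences were -1.48 (adjusted p = 0.0260) and 1.72 (adjusted p = 0.0283), and both were still called. Without MCAGF8 replicate 1 or 3 the first was not called (adjusted p = 0.143 and 0.102), nor was the second without any 1 of the 3 control vault libraries (adjusted p = 0.107 to 0.176). Without moderation neither was called (0.135 and 0.177), and in a fit of the 6 libraries compared the second was not (0.178).

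Neuronal transcripts moved with Fgf13. Stmn2 and Prph, the neuronal markers with the highest mean FPKM, were at 100 to 470 and 92.1 to 559 FPKM in the base, against 12.1 to 73.2 and 0.911 to 11.3 in the 6 vault libraries. Of the 10 neuronal markers tested, 8 were called lower in the MCAGF8 vault than in the base (5.41% of all genes). In the base 4 were called higher than in the control vault (1.85% of all genes), and none of the 13 matched was at 0 in every library. In each of these comparisons 9 of the 10 had more in the base by the fitted difference, and 1 had less. Neurod1 averaged 1.68 FPKM in the base and 2.41 in the control vault. Sst averaged 3.50 in the base and 3.46 in the MCAGF8 vault. Over the 9 libraries Pearson's r between Fgf13 and the summed markers, both on a log2 scale, was 0.92, with rho 0.60, and r was 0.73 without the 2 farthest sums. Within the vault groups the order was mixed. Control vault replicate 2 had the fewest neuronal transcripts and the most Fgf13 of its group, whereas MCAGF8 replicate 2 had the most of both in its group. For deviations from the group means over the 9 libraries r was 0.60. The part of neuronal tissue in the Fgf13 values was not tested.

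Fgf9 was lower in the MCAGF8 vault than in the base as well. In the base it was at 4.42, 7.61 and 4.03 FPKM, all above the 0.787 to 2.03 FPKM of the MCAGF8 vault. The mean was 3.80-fold lower and the log2 difference was -1.39 (SE 0.327, adjusted p = 0.0421 with limma). Base replicate 2, the library rich in otic transcripts, had the most Fgf9. Without that library the Fgf9 difference was smaller, at -1.15 (unadjusted p = 0.00727 with limma, against 0.00187 with it). Fgf9 was still called there (adjusted p = 0.0474), in a fit that called 4580 of all 18714 genes, against 1571 in the main fit. Without MCAGF8 replicate 1 or 2 Fgf9 was not called (adjusted p = 0.185 and 0.119). The call was also lost with every library scaled to the same FPKM sum (0.122) and without moderation (0.118). Base and control vault overlapped in Fgf9, with a difference of 0.33 (95% interval -0.40 to 1.07, adjusted p = 0.824).

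Skeletal muscle transcripts moved with Fgf9. All 10 muscle markers had a negative difference in the MCAGF8 vault against either control tissue. Of these, 5 were called lower than in the control vault (70 of all 18714 genes tested) and 9 lower than in the base (5.41% of all genes). Mylpf and Acta1, the muscle markers with the highest mean FPKM, were at 9.82 to 76.8 and 2.24 to 30.3 FPKM in the MCAGF8 vault, at 446 to 2851 and 130 to 848 in the control vault and at 845 to 7750 and 253 to 967 in the base. Within the MCAGF8 vault, replicates 1, 2 and 3 stood in the same order for muscle markers and for Fgf9, and control vault replicate 2 had the most of both in its group. Base replicate 2 departed from this, with the least muscle of its group (1580 FPKM, against 10772 and 4421) and the most Fgf9. Base replicate 1 had more of both than base replicate 3. Pearson's r over the 9 libraries was 0.87, with rho 0.87, and r was 0.62 without the 2 farthest sums and 0.37 for deviations from the group means. Other lists were lowest in the MCAGF8 vault too. Osteoblast markers summed to 140 to 288 FPKM there and to at least 491 in each control library. Pituitary and infundibulum markers were at 4.92 to 7.07 against at least 11.6 FPKM. With the otic sum Fgf9 had an r of 0.66 over the 9 libraries, with rho 0.62. That r was 0.44 without the 2 farthest sums and 0.42 for deviations from the group means. In 2 of the 3 groups the libraries stood in opposite order for Fgf9 and the otic sum. The part of muscle, or of the tissues of these other lists, in the Fgf9 values was not tested.

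Fgf6, a ligand known for its restriction to skeletal muscle, had the same pattern. It was at 0.0494, 0 and 0 FPKM in the MCAGF8 vault, 0.453, 3.13 and 0.701 in the control vault and 2.96, 1.35 and 1.31 in the base. The MCAGF8 libraries lay below all others, and Fgf6 was called against the base (-1.45, SE 0.390, adjusted p = 0.0690 with limma) and not against the control vault (-1.09, adjusted p = 0.536).

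Fgf7, a mesenchymal ligand for epithelial FGFR2, was at 13.1, 10.2 and 8.30 FPKM in the base, above all 6 vault libraries, the highest of which was 6.51. Its mean was 2.47-fold lower in the MCAGF8 vault than in the base and the log2 difference was -1.18 (SE 0.296, adjusted p = 0.0546 with limma). The call was lost without MCAGF8 replicate 1 (adjusted p = 0.181), MCAGF8 replicate 2 (0.155) or base replicate 1 (0.137), and under 5 other alternatives: no filter (0.101), the same FPKM sum (0.162), the 6 libraries compared (0.158), the replicate block (0.127) and no moderation (0.129). For base against control vault the difference was 0.69 (SE 0.296, unadjusted p = 0.0422, adjusted p = 0.359), which was not called.

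Fgf10 had a base level of 5.13, 7.68 and 4.26 FPKM, and all 6 vault libraries lay below these values, at up to 3.41. Its differences were -0.76 for MCAGF8 vault against base (SE 0.272, adjusted p = 0.158 with limma) and 0.87 for base against control vault (SE 0.272, adjusted p = 0.178), neither of them called. The highest value was again that of base replicate 2. Oc90 and Tecta, genes of inner ear epithelium, were at 753 and 32.3 FPKM there and at no more than 5.25 and 2.05 in the other 8 libraries. Pearson's r of Fgf10 with the otic sum was 0.88, with rho 0.87, and 0.78 without the 2 farthest sums, and the part of otic tissue was not tested.

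Fgf2 was lower in every base library than in any vault library. It was at 6.95, 5.63 and 5.65 FPKM there, and the lowest vault value was 7.01. The differences were -0.80 for base against control vault (SE 0.243, adjusted p = 0.162 with limma) and 0.56 for MCAGF8 vault against base (SE 0.243, adjusted p = 0.244), neither called. With quantile normalization Fgf2 was called lower in the base than in the control vault (-0.99, adjusted p = 0.0836).

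**Figure D4:**
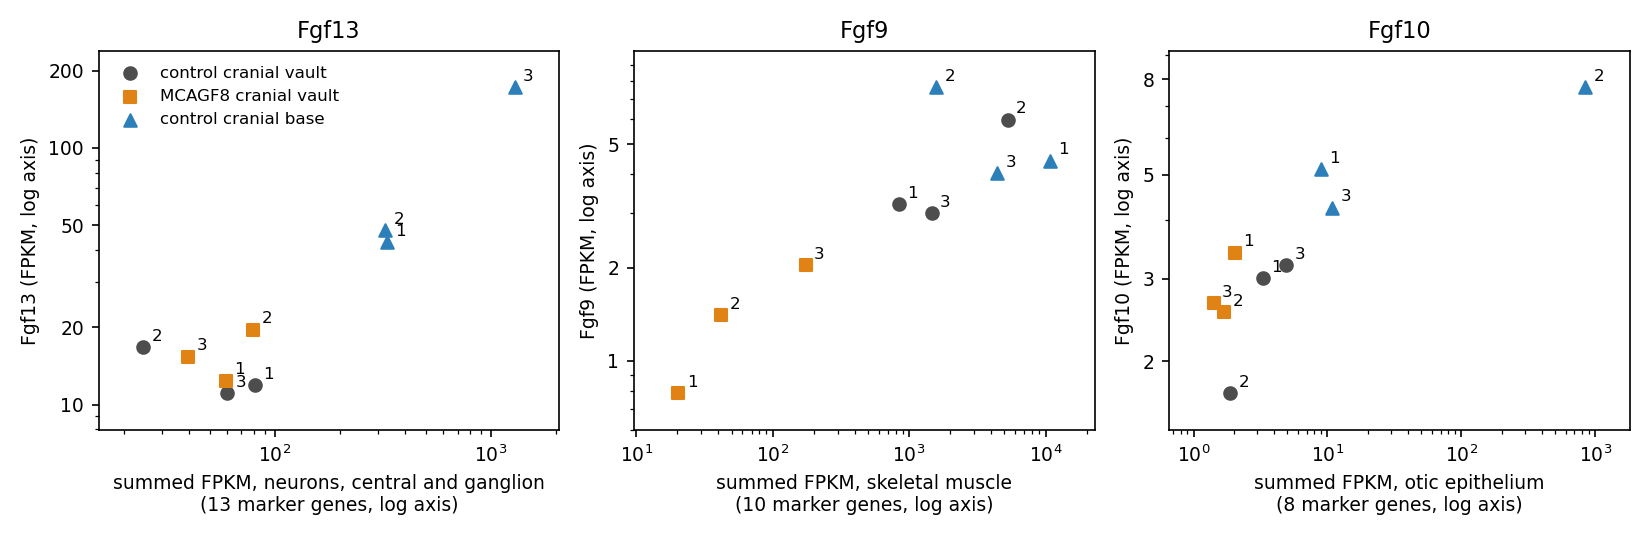
FPKM of Fgf13, Fgf9 and Fgf10, on log axes, against the summed FPKM of the neuronal, skeletal muscle and otic marker lists, with 1 point per library and its replicate number. Base replicate 3 is highest in Fgf13 and neuronal markers, the 3 MCAGF8 libraries are lowest in Fgf9 and muscle markers, and base replicate 2 is highest in Fgf10 and otic markers.

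Fgf3, the other member of the Fgf7 subfamily and a gene of the early inner ear, was at 0.219, 0.917 and 1.56 FPKM in the base, 0.0275 to 0.363 in the control vault and 0.146 to 0.284 in the MCAGF8 vault, which overlap. Fgf20, known for its role in the sensory patch of the cochlea, was at 0.225, 2.09 and 0.393 FPKM in the base. Base replicate 2, rich in otic transcripts, thus held the highest Fgf20 value of the 9 libraries, and also the highest Fgf17, while the highest Fgf3 was in base replicate 3.

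Without Fgf13, the FPKM of the 9 receptor-binding ligands summed to similar amounts in the groups, at 55.7 ± 8.34 in the control vault, 55.8 ± 3.38 in the MCAGF8 vault and 61.2 ± 6.66 in the base (SD, n = 3 each), and their ranges overlapped. The make-up of that sum varied. Fgf18 held 30.1% to 47.7% in the control vault, 31.1% to 58.0% in the MCAGF8 vault and 24.2% to 48.3% in the base, and Fgf8 held 6.46% to 23.3% in the control vault, 17.1% to 32.8% in the MCAGF8 vault and 6.72% to 25.3% in the base. Fgf9 held 5.54% to 9.54% in the control vault, 1.32% to 3.85% in the MCAGF8 vault and 6.86% to 11.1% in the base, so the MCAGF8 shares lay below both others. Fgf2 held 19.5% to 22.0% in the control vault, 12.7% to 21.2% in the MCAGF8 vault and 8.18% to 12.4% in the base. Fgf7 and Fgf10 held more in every base library than in any vault library. Fgf13 made 17.1% to 21.0% of the sum of all 10 ligands in the control vault, 17.3% to 26.2% in the MCAGF8 vault and 40.9% to 74.6% in the base. These shares follow from the values above and were not tested.

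**Figure D5:**
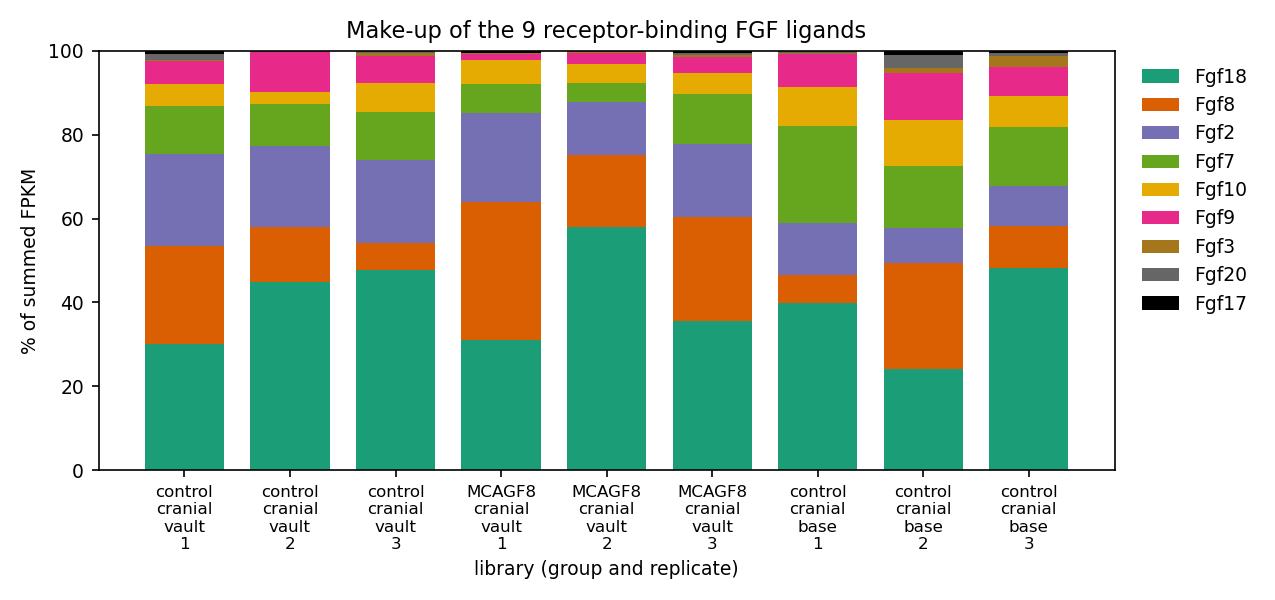
Share of each of the 9 receptor-binding FGF ligands in their summed FPKM, as a percentage, 1 bar per library. The Fgf9 share is 1.32% to 3.85% in the MCAGF8 cranial vault and at least 5.54% elsewhere, and the Fgf7 and Fgf10 shares are largest in the control cranial base.

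The other genes of the pathway were taken from lists of further ligands, receptors, binding proteins and feedback regulators. Of 12 further ligands 7 were tested. None was called between the vaults, where 3 (Fgf5, Fgf6 and Fgf11) had an unadjusted p under 0.05 (6.34% of all genes), and 2 were called lower in the MCAGF8 vault than in the base (5.41% of all genes). None was called between base and control vault, where 1 (Fgf11) had an unadjusted p under 0.05 (12.8% of all genes). Their median log2 differences were 0.07 between the vaults, -0.62 for MCAGF8 vault against base and 0.53 for base against control vault. The called ligand beside Fgf6 was Fgf5, a ligand known from the hair cycle, at 0 to 0.0507 FPKM in the MCAGF8 vault, 0.451 to 1.24 in the control vault and 0.953 to 2.35 in the base (-1.41 against the base, SE 0.268, adjusted p = 0.0182 with limma). Its vault ranges did not overlap either, but it was not called between the vaults (-0.88, adjusted p = 0.385).

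None of the 5 tested receptors was called in any comparison with limma. At an unadjusted p under 0.05 there was 1 such receptor, Fgfr4, in MCAGF8 vault against base, where 19.6% of all genes passed. There was none in the other comparisons (6.34% of all genes between the vaults and 12.8% for base against control vault). The medians in the order of comparisons above were 0.26, -0.02 and 0.17. Fgfr1 was at 146 to 171 FPKM in the control vault, 182 to 198 in the MCAGF8 vault and 99.1 to 179 in the base. Fgfr2 was at 117 to 150, 128 to 174 and 70.3 to 158 FPKM and Fgfr3 at 34.9 to 55.9, 47.4 to 93.8 and 28.7 to 180 FPKM in the same order. The highest Fgfr3 value was that of base replicate 2. Fgfr1 exceeded each of the 10 ligands in FPKM in every library, most narrowly Fgf13 in base replicate 3.

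Of 6 tested FGF-binding and processing proteins none was called between the vaults, and 1 had an unadjusted p under 0.05 (6.34% of all genes). Against the base, 2 were called higher in the MCAGF8 vault, as were 558 of all 18714 genes tested. In the base, 1 was called lower than in the control vault, as were 226 of the 18714. The medians of the 6 were 0.46, 0.77 and -0.21 in these comparisons. Htra1, a secreted protease able to cleave Fgf8, was at 201, 196 and 226 FPKM in the control vault, 321, 471 and 288 in the MCAGF8 vault, and 98.7, 73.8 and 70.0 in the base. The groups did not overlap. It was called against the base (2.13, SE 0.228, adjusted p = 0.00251 with limma) and in the base against the control vault (-1.36, adjusted p = 0.0233). Between the vaults Htra1 was not called (0.76, unadjusted p = 0.00789, adjusted p = 0.357). Flrt3, a membrane protein that interacts with FGF receptors, was the other called gene, at 24.3 to 34.4 FPKM in the MCAGF8 vault and 12.8 to 22.6 in the base (0.85, adjusted p = 0.0936).

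Among 18 tested feedback regulators and targets of FGF signalling none was called between the vaults or between MCAGF8 vault and base. In these comparisons 4 (Ccnd1, Dusp6, Etv4 and Spry4) and 3 had an unadjusted p under 0.05 (6.34% and 19.6% of all genes). For base against control vault 1 was called higher in the base (1.85% of all genes). The medians of the 18 were 0.14, -0.15 and 0.27. The called gene was Etv4, an ETS transcription factor induced by FGF signals, at 16.7, 25.3 and 25.1 FPKM in the base, 10.4, 8.33 and 6.43 in the control vault and 16.4, 20.2 and 17.2 in the MCAGF8 vault (1.32 for base against control vault, SE 0.235, adjusted p = 0.0303 with limma). Between the vaults its ranges did not overlap, but it was not called (1.03, adjusted p = 0.163). Dusp6, a phosphatase that dampens ERK, was likewise higher in each MCAGF8 library, at 46.5 to 59.5 against 26.9 to 32.6 FPKM. It was not called (0.77, unadjusted p = 0.00242, adjusted p = 0.205 with limma). Spry4, an inhibitor of the same route, was at 10.2 to 11.3 against 6.43 to 8.75 FPKM (0.51, unadjusted p = 0.0469, adjusted p = 0.776 with limma). Etv5 overlapped at 14.9 to 23.8 against 13.5 to 16.4 FPKM. Ccnd1 went the other way, at 64.8 to 90.6 against 109 to 152 FPKM, without being called (-0.65, adjusted p = 0.380 with limma). Between the vaults 10 of the 18 genes had a positive and 8 a negative difference.

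For each tested ligand the most similar profiles were sought among 12883 genes with a mean of at least 5 FPKM, by Pearson's r of log2(FPKM + 1) over the 9 libraries. With so few libraries and 3 groups these values are a description only. Fgf8 was closest to Clcn2, a chloride channel gene (r = 0.99), and to Sned1 (r = 0.98), and Clcn2 was at 39.2 FPKM in base replicate 2 and 14.2 in control vault replicate 3, where Fgf8 was also near its extremes. Fgf18 was closest to Acadl and Gpatch3 (both r = 0.97), Fgf9 to Gm7334 (0.97) and Sytl2 (0.96), and Fgf7 to Ndufaf4 (0.98) and Zfp35 (0.97). Fgf10 was closest to the tight junction gene Cldn6 and to Lrrn3 (both r = 0.91), which were highest in base replicate 2 at 46.6 and 19.4 FPKM. Fgf2 was closest to the Wnt antagonist gene Dkk2 and to Hacd4 (both r = 0.93). Fgf13 was closest to Cplx1, a gene of neurotransmitter release (r = 0.98), and Klhdc8b (r = 0.98), and Cplx1 was at 8.38, 12.0 and 59.1 FPKM in base replicates 1 to 3 and at no more than 0.714 in the vaults.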

How the data were processed

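RNA was extracted by the authors from pooled tissue, and stranded mRNA libraries were read as single ends of 151 bases. The authors aligned reads with gSNAP and obtained FPKM per gene with Cufflinks; the genome build, annotation and versions were not given in the sources used. The deposited FPKM values were used as given, without counts, so read depth and counting error are unknown; FPKM summed to 793249 to 1315982 per library. Of 43611 rows, the 63 that repeated an identifier were summed with the first, and 9 genes with placeholder values were left out. The 18714 genes averaging 0.5 FPKM or more were tested with limma 3.58.1 in R 4.3.3 (two-sided, moderated, trend on mean expression) on log2(FPKM + 1), with 1 mean per group over all 9 libraries and Benjamini-Hochberg adjustment over all genes. The procedure was tested on simulated data. Symbols and coordinates came from the reference tables for GRCm38, and upstream sequences from RefSeq, which held 7 of the 10 ligands. The ligands and gene lists, and the markers, were chosen with earlier results of these data known. Named genes are all 10 ligands, pathway genes called in any comparison, Fgfr1 to Fgfr3, Dusp6, Spry4, Htra1, Etv4 and Etv5, the 2 closest profiles of each tested ligand, and the 2 most abundant markers of a list that moves with a ligand. Ccnd1 was named besides, as the feedback gene lower in the MCAGF8 than in the control vault at an unadjusted p under 0.05. Markers that did not follow their list were named as well. Of the genes listed, 3 had no match. Alternatives changed the pseudocount, filter, scaling, libraries fitted, moderation, call rule and replicate block, and left out each library.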

Additional observations from a re-analysis of the deposited data

How the results depend on the processing

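No ligand was called between the vaults under any of the 17 alternatives that kept the call rule, which called 0 to 231 of all genes. At an unadjusted p under 0.05 alone there was 1, as were 1186 of all 18714 genes. For MCAGF8 vault against base 3 ligands were called, as were 1571 of all 18714 genes, and counts over all genes follow in brackets. The 3 calls became 1 with every library scaled to the same FPKM sum (1605). They became 0 without moderation (869) and 5 at an unadjusted p alone (3675). When 1 library was left out they ran from 0 to 3 (559 to 4580). For base against control vault, the 1 call (573 over all genes) became 2 with quantile normalization (626) and 0 in a fit of the 6 libraries compared (108). It became 0 without moderation (257) and 4 at an unadjusted p alone (2396). When 1 library was left out the calls ran from 0 to 1 (132 to 1322). The causes were not tested.

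Values near zero changed sign. Between the vaults Fgf18 was at -0.0035 with quantile normalization and -0.24 to 0.18 when 1 library was left out, and Fgf10 at -0.093 to 0.23. Fgf18 ran from -0.23 to 0.20 for MCAGF8 vault against base and from -0.19 to 0.18 for base against control vault, and Fgf8 from -0.51 to 0.47, with -0.14 under quantile normalization. No called ligand changed sign. Of all single-ligand values under the alternatives 319 kept their direction and side of the threshold, 20 lost a call, 1 gained it and 11 changed sign.

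Calls across all genes ran from 0 to 231 between the vaults, 559 to 4580 for MCAGF8 vault against base and 108 to 1322 for base against control vault. For MCAGF8 vault against base, 558 were higher and 1013 lower, but 1153 and 810 with quantile normalization and 776 and 829 at a fixed FPKM sum. For base against control vault, 347 higher and 226 lower became 236 and 390 with quantile normalization. Scaling to a fixed sum moved the median of all genes to 0.13 between the vaults and to 0.11 against the base.

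Same-numbered libraries did not deviate together as a set (r from -0.55 to 0.37 over 9 pairs, 2 of them over 0.1). With 3 libraries per group, this cannot settle whether the numbers pair the samples. With the replicate block, 2 ligands were called for MCAGF8 vault against base, as were 918 of all 18714 genes. Fgf7 had a log2 difference of -1.18 there and an adjusted p of 0.127 with limma. For base against control vault 1 ligand was called (234 of all genes), and between the vaults 0 were (19 of all genes). The filter at a mean of 5 FPKM gave no value for Fgf9 and Fgf10. Pools of 3 and the unknown depth limit what small differences could be seen.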
